A study of Mus musculus with 2 samples.

Results

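The collagen genes of the mouse liver are described here in 2 pools of tissue, taken after injection of a control adenovirus (Ad-Ctrl) or of one that, per the labels, makes the cells overexpress miR-378, a microRNA (Ad-378). They were chosen by name alone: every gene probe whose RefSeq transcript maps to a symbol made of Col, a number, the letter a and a number. The reference table holds 44 such symbols, of which 43 were matched by 63 probes, out of 20652 gene symbols on the array; no probe was matched to Col12a1. Each group was the pooled liver RNA of 5 male mice, injected in the tail vein with 1e9 plaque forming units at 8 weeks of age, and was measured on 1 array, so no value has a replicate and no p-value is given. The labels' protocols place collection 2 weeks after injection in both groups, whereas the description of the Ad-378 pool gives 3 weeks. The strain of the mice and the promoter that drives the virus are not given in the sources used here, and the extraction kit named in the labels is one made for blood, with a step that removes globin RNA. The series is titled as a study of cholesterol and bile acids under this thyroid hormone-responsive microRNA; collagen is not its stated subject.

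Collagens are proteins of 3 chains wound into a helix, and are sorted into classes by what they build. Fibrillar collagens form the banded fibres that give tissue its tensile strength, type IV collagens form the sheet-like network of basement membranes, and the remaining classes link, coat or anchor these. In the liver, hepatic stellate cells and portal fibroblasts are the main known source of fibrillar collagen and lay it down in fibrosis, endothelial cells contribute basement membrane chains, and hepatocytes are known to make type XVIII collagen, the precursor of endostatin.

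Values are processed array signals divided by the 75th percentile of their own array, called relative signals here, so that 1 stands for that percentile; that percentile was 800.4 units for the Ad-Ctrl array and 695.2 units for the Ad-378 array. Differences are log2, Ad-378 minus Ad-Ctrl. The scanner error printed after a difference is the measurement error deposited for the spots, and says nothing about mice or pools. Probes bind their targets with different strength, so signals are compared between pools for the same probe and never between genes. The summed relative signals of marker lists given below add unlike probes and are weighted towards the brightest. Of the 43 genes, 23 had a probe well above background on both arrays, 4 on the Ad-378 array only and 16 on neither. Of all gene spots, 63.1% were well above background on the Ad-Ctrl array and 65.7% on the Ad-378 array. The dimmest detected probe signal was 15.2 units in Ad-Ctrl and 11.3 units in Ad-378. The hepatocyte markers checked the tissue: 9 of 10 had a matched probe, and all 9 were well above background on both arrays. The relative signals of albumin (Alb) were 198.8 in Ad-Ctrl and 226.3 in Ad-378, and the median log2 difference of the 9 was 0.16.

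The chains of the major fibrils gave the lowest Ad-378 values relative to Ad-Ctrl, type VI and XIV collagens were also lower, and most of the remaining basement membrane and minor collagens lay close to equal. Of the 23 genes measured in both pools, 8 were at least 2-fold lower in Ad-378 (34.8%), against 4.51% of all 14288 genes measured on both arrays. None of the 23 was at least 2-fold higher, against 2.83% of all genes. The 8 were Col3a1, Col1a1, Col1a2, Col5a1, Col6a3, Col14a1, Col6a2 and Col4a1. The median over the 23 was -0.35, beside 0.04 over all genes; it was -0.0894 in the deposited series matrix and -0.0139 after a background correction by normexp, which damps dim probes. Negative differences numbered 14 of 23, against 46.1% of all genes. The members nearest the 2-fold line were Col4a1 inside the call (-1.17) and Col6a1 outside it (-0.87). In bulk liver RNA, fewer collagen-making cells and less collagen RNA per cell cannot be told apart.

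**Figure D1:**
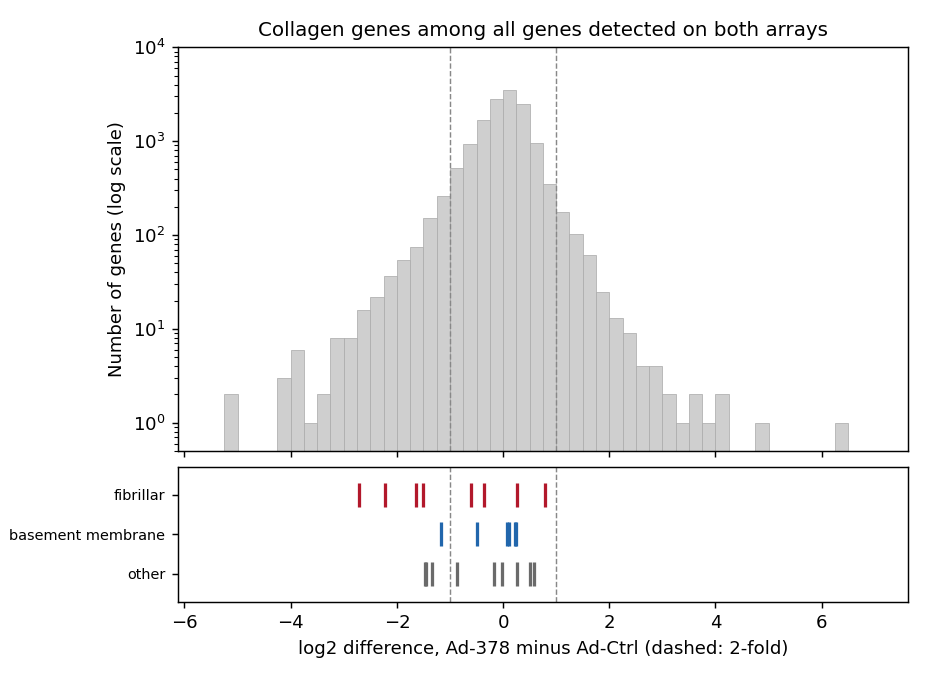
Upper panel: number of genes (log scale) at each log2 difference between the Ad-378 and Ad-Ctrl pools, in bins of 0.25, over 14288 genes. Lower panel: each line is 1 of the 23 collagen genes measured on both arrays, by class; 8 lie left of the lower 2-fold line and none right of the upper line.

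The fibrillar class held the largest differences. Col3a1, which encodes the single chain of type III collagen, the reticulin fibre of the liver, gave relative signals of 20.2 (Ad-Ctrl) and 3.09 (Ad-378). This was 6.53-fold lower in Ad-378 (log2 difference -2.71, scanner error 0.20), and only 33 of the 14288 genes lay further below. Col1a1, the more abundant chain of type I collagen, had 14.2 in Ad-Ctrl and 3.05 in Ad-378, a difference of 4.67-fold (-2.22, scanner error 0.20), with 75 genes further below. Its partner chain in the same helix, Col1a2, had 5.12 and 1.65, a difference of 3.10-fold (-1.63, scanner error 0.20). Both chains of type I collagen were thus lower in the Ad-378 pool, the first by more than the second, though their difference rests on 1 probe each.

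Type V collagen, which sits in the core of type I fibres and limits their width, was split by chain. Col5a1 gave relative signals of 0.80 (Ad-Ctrl) and 0.28 (Ad-378), 2.83-fold lower in the latter (scanner error 0.21 log2). Col5a2 was dim in both pools, at 0.038 and 0.025, with a difference of -0.61 and a scanner error of 0.35. After normexp, Col5a2 differed by -0.01. Col5a3 had 0.98 and 0.77, a difference of -0.35 with a scanner error of 0.20. Of the type V chains, Col5a1 alone was past 2-fold.

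The 2 other fibrillar genes that were measured did not share this direction. Col27a1, a fibrillar collagen known from cartilage, had 0.15 in Ad-Ctrl and 0.18 in Ad-378, a difference of 0.26 with a scanner error of 0.21. Col11a2, a cartilage fibril chain, was near the floor of the array in both pools at 0.039 and 0.067, with a difference of 0.79 (scanner error 0.30) that was 0.30 after normexp. Over the 8 fibrillar genes measured in both pools, 6 differences were negative, 4 were past 2-fold downwards (against 4.51% of all genes) and the median was -1.05. The median was -0.73 after normexp, and -0.35 without a background filter, which adds the 3 genes detected in neither pool. Col2a1, Col11a1 and Col24a1 were not well above background on either array.

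**Figure D2:**
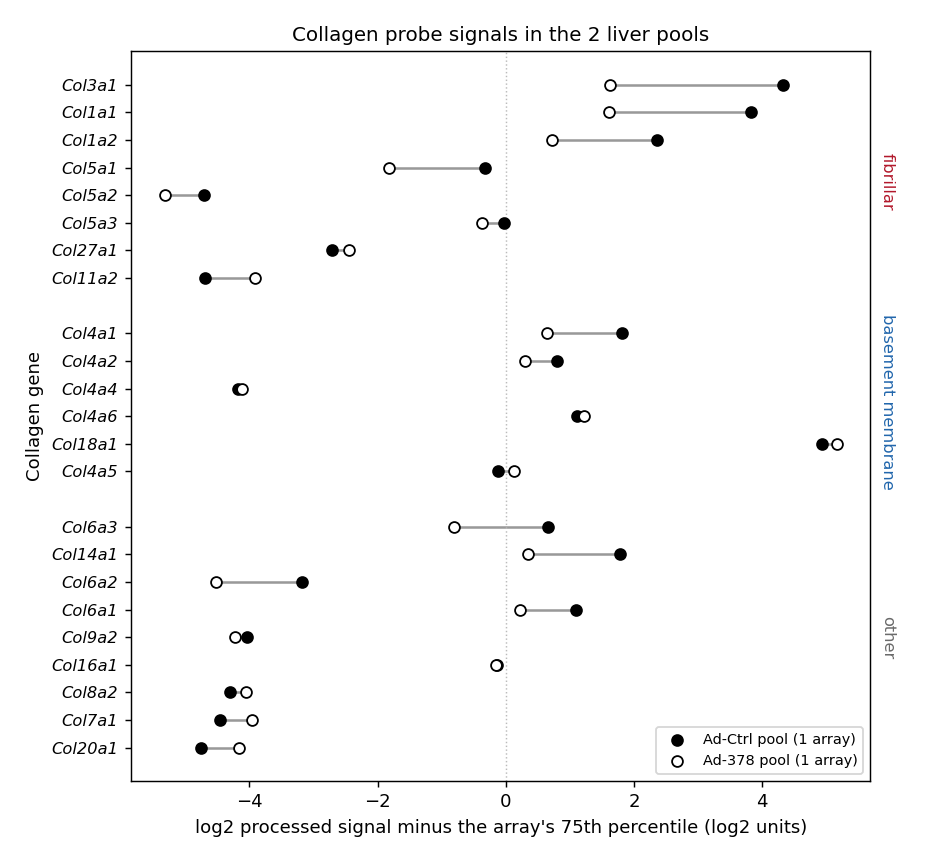
Relative signal (log2, 0 is the array's 75th percentile) of the 23 collagen genes in the Ad-Ctrl pool (filled) and the Ad-378 pool (open), 1 array each, by class and by size of the difference. Col3a1, Col1a1 and Col1a2 show the widest gaps; levels of different genes come from different probes and are not comparable.

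Stretches of promoter are shown for Col1a2 and Col3a1, which were lower in the Ad-378 pool together, and for both annotated starts of Col18a1, which was not. Each runs from 120 bases before the RefSeq start to 10 bases after it, on the strand of the gene, in build GRCm38.p6 (chr6:4505498-4505627, plus strand; chr1:45311418-45311547, plus strand; chr10:77166521-77166650 and chr10:77113696-77113825, minus strand). Capitals mark letters, on either strand, of CCAAT (the box bound by NF-Y), GGGCGG (the GC box of Sp1), TATAAA (the TATA box) or CAGAC (letters of the element bound by SMAD proteins); no marked match overlaps another.
Col1a2: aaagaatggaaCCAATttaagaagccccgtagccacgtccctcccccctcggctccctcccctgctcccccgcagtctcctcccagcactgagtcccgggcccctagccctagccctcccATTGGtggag
Col3a1: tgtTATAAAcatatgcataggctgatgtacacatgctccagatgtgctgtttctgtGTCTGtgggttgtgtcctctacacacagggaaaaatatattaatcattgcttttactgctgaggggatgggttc
Col18a1, upstream start: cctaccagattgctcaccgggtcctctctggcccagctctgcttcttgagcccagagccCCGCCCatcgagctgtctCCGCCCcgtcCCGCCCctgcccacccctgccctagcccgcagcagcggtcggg
Col18a1, downstream start: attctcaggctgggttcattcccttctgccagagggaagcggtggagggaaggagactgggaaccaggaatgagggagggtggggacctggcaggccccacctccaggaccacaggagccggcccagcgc

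In these stretches Col1a2 carried CCAAT letters at 2 places and Col3a1 a TATAAA and a CAGAC match, while the upstream Col18a1 start carried 3 GC boxes and its downstream start no match. The full windows of the table run from 250 bases before to 50 after the start and were matched for 20 of the 23 genes; Col1a1, Col5a2 and Col14a1 were not matched. CCAAT letters were in 8 of the 20 (41.1% of all 27025 genes with a window), TATAAA in 2 (15.7%), GGGCGG in 15 (38.2%) and CAGAC in 12 (53.2%). Among the 6 matched genes at least 2-fold lower in Ad-378, 2 held CCAAT, 1 TATAAA, 4 GGGCGG and 5 CAGAC, and among the other 14 genes 6, 1, 11 and 7 did. These are matches of letters and not bound sites.

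Of the basement membrane class, Col4a1 and Col4a2 were lower in the Ad-378 pool and the others were not. These chains join as 2 copies of the first with 1 of the second in nearly all basement membranes. Col4a1 gave relative signals of 3.52 (Ad-Ctrl) and 1.57 (Ad-378), 2.25-fold lower (-1.17, scanner error 0.20). Its probe was printed in many spots, of which 9 were used in Ad-Ctrl and 10 in Ad-378, and the SD of log2 signal among them was 0.051 and 0.038. That spread is of spots within an array and not of mice or pools. Col4a2 had 1.74 and 1.24, a difference of -0.49 with a scanner error of 0.20. Their genes stand side by side and are read in opposite directions, and their promoter windows share 78 bases.

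The other type IV chains were level. Col4a5 had 0.92 in Ad-Ctrl and 1.09 in Ad-378, a difference of 0.25 (scanner error 0.20), and its neighbour Col4a6 had 2.15 and 2.34, a difference of 0.12 (scanner error 0.20). These differences are close to the scanner error. A second Col4a6 probe was not well above background on either array and gave no value. Col4a4, a chain of the kidney glomerulus, had a brighter probe at 0.055 and 0.058 (0.07, scanner error 0.27) and another at 0.042 and 0.027 (-0.65), and the sign of the gene turned with the mean over probes (-0.29), quantile normalization and loess. Col4a3 was not well above background on either array.

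Col18a1, the source of endostatin, gave bright signals and differed little. Its brighter probe had 30.6 in Ad-Ctrl and 35.9 in Ad-378, a difference of 0.23 with a scanner error of 0.20. The other probe had 21.5 and 20.0, a difference of -0.11, so the probes disagreed in sign and the values lay within about the scanner error of equality. Col15a1, the other collagen of this type, was well above background in Ad-378 only, by 1 of 3 probes. That probe had a relative signal of 0.031 against 0.016 in Ad-Ctrl (0.92, scanner error 0.55), with a lower bound of 1.63-fold higher in Ad-378. The other probes, not well above background on either array, lay the other way (-0.64 and -0.99). The median of the 6 measured basement membrane genes was 0.09, and it was -0.11 with the mean over probes.

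**Figure D3:**
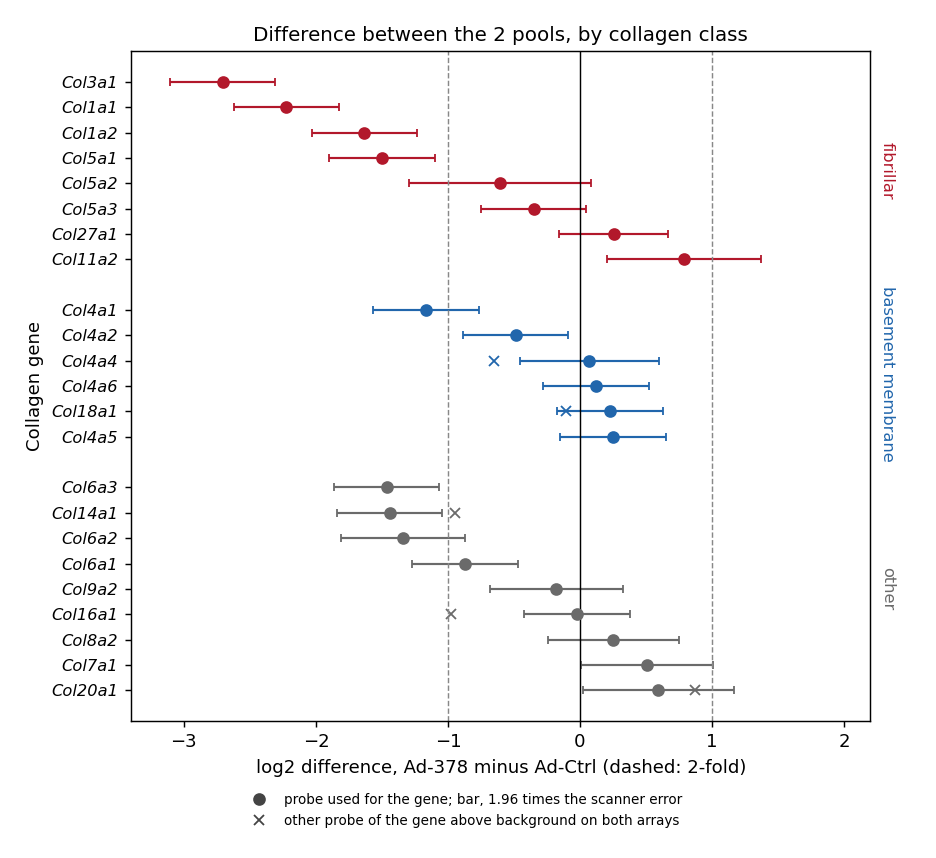
log2 difference (Ad-378 minus Ad-Ctrl) of each collagen gene, with bars of 1.96 times the scanner error of the spots and crosses for further probes of a gene. The points of 8 genes lie left of the 2-fold line at -1, with the bars of Col4a1 and Col6a2 crossing it, and Col18a1, Col4a5 and Col4a6 lie within 0.25 of 0.

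Type VI collagen, which forms beaded filaments around cells, was lower in the Ad-378 pool in all 3 of its classical chains. Col6a1 gave relative signals of 2.14 (Ad-Ctrl) and 1.17 (Ad-378), 1.83-fold lower (-0.87, scanner error 0.20). Col6a2, whose gene neighbours Col6a1, had 0.11 and 0.043, 2.53-fold lower (-1.34, scanner error 0.24). It was dim, and lay inside 2-fold after normexp (-0.58) and in the deposited series matrix (-0.71). Col6a3, the long chain that completes the helix, had 1.58 and 0.57, 2.76-fold lower (-1.46, scanner error 0.20). The newer chains Col6a4, Col6a5 and Col6a6 were not well above background on either array.

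Among the collagens that coat fibrils, Col14a1 was lower in the Ad-378 pool and the others were mixed. Col14a1, a fibril-associated collagen, had 3.44 in Ad-Ctrl and 1.27 in Ad-378, 2.72-fold lower (-1.44, scanner error 0.20), and its dimmer probe had 0.32 and 0.17 (-0.94), inside 2-fold. Col16a1 gave 3 probes that disagreed. The brightest had 0.91 and 0.90 (-0.02, scanner error 0.20), the next 0.083 and 0.042 (-0.98), and the dimmest was well above background in Ad-Ctrl only, at least 3.37-fold higher there. Whether Col16a1 differed thus depends on the probe, and the mean over the probes measured in both pools was -0.50. Col9a2 had 0.061 and 0.054 (-0.18, scanner error 0.26), and Col20a1 had 0.037 and 0.056 (0.59, scanner error 0.29) with its other probe at 0.87.

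The remaining collagens were dim. Col7a1, the anchoring fibril of epithelia, had 0.045 in Ad-Ctrl and 0.064 in Ad-378 (0.51, scanner error 0.26; 0.28 after normexp). Col8a2, a network collagen of the cornea and vessels, had 0.051 and 0.060 (0.25, scanner error 0.25). Col9a1 was well above background in Ad-378 only, at 0.022 in Ad-Ctrl and 0.030 in Ad-378 (0.43, scanner error 0.40). Its other probe was not well above background on either array. The membrane collagens Col23a1 and Col25a1 were detected in Ad-378 only too, but too near the floor for a bound. That Col23a1 probe had the higher relative signal in Ad-Ctrl (0.018, against 0.017 in Ad-378). Col8a1, Col9a3, Col10a1, Col13a1, Col17a1, Col19a1, Col22a1, Col26a1 and Col28a1 were not well above background on either array. Over the 9 measured genes outside the fibrillar and basement membrane classes, 3 were past 2-fold downwards (against 4.51% of all genes). Their median was -0.18, and it was 0.01 after normexp, where its sign turned.

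Genomic neighbours differed in the size of their values. Col3a1 and Col5a2, which stand next to each other, differed by -2.71 and -0.61, Col6a2 and Col6a1 by -1.34 and -0.87, Col4a1 and Col4a2 by -1.17 and -0.49, and Col4a6 and Col4a5 by 0.12 and 0.25. Both genes of each of these 4 pairs had the same sign.

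Enzymes that modify and cross-link collagen were lower in part. Of 33 genes of synthesis and processing, 30 were measured in both pools. Of these, 6 were at least 2-fold lower in Ad-378 and none higher (against 4.51% and 2.83% of all genes). The median was -0.24, and it was -0.13 after normexp. Differences were negative for 19 of the 30 (against 46.1% of all genes) and positive for 11. The highest was that of P3h4 (0.93), named after its value was seen. The largest difference was that of P4ha2, a catalytic subunit of prolyl 4-hydroxylase (1.04 in Ad-Ctrl and 0.38 in Ad-378, -1.45). Next were P3h3, a prolyl 3-hydroxylase family member (-1.41), Adamts14, a procollagen N-proteinase (-1.41), and Loxl1, a lysyl oxidase (-1.36). P3h3 (0.15 in Ad-Ctrl and 0.056 in Ad-378), Adamts14 (0.14 and 0.052) and Loxl1 (0.25 and 0.098) were dim in Ad-378. The other lysyl oxidase genes past 2-fold were Loxl4 (-1.30) and Loxl2 (-1.03, other probe -0.35), both dim in Ad-378 (0.083 and 0.11). Serpinh1, the collagen chaperone HSP47, had 1.92 and 0.97 and lay at -0.99, just inside 2-fold; it and these 2 lysyl oxidases were picked after their values were seen. Plod2, a lysyl hydroxylase that prepares collagen for cross-linking, was well above background in Ad-Ctrl only, at least 2.38-fold higher there. P3h2 was so too, at least 1.34-fold higher there.

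Genes of collagen breakdown and its control differed in both directions. The list holds the Timp genes, which encode inhibitors of matrix-degrading enzymes, so its counts and median pool genes of opposite action. Of 17 genes, 13 were measured in both pools, with 2 at least 2-fold lower, 1 at least 2-fold higher (against 4.51% and 2.83% of all genes) and a median of -0.16. The gelatinase gene Mmp2 had 0.37 in Ad-Ctrl and 0.13 in Ad-378 (2.82-fold lower), the neutrophil collagenase gene Mmp8 was dim and differed by -1.11, and the cathepsin K gene Ctsk by -0.82. The interstitial collagenase gene Mmp13 was higher in Ad-378, at 0.24 in Ad-Ctrl and 0.54 in Ad-378 (1.14). Timp4, an inhibitor of these enzymes, was well above background in Ad-Ctrl only, at least 3.23-fold higher there. Mrc2 was so too, at least 1.48-fold higher there. Mmp9 was well above background in Ad-378 only, at least 1.08-fold higher there.

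Among the collagen receptors measured in both pools, 1 gene was past 2-fold, and it was lower in Ad-378. Of 13 genes, 10 were measured in both pools; 1 was at least 2-fold lower (against 4.51% of all genes) and none higher, and their median was -0.38. Itga2, an integrin chain for collagen, is outside these 10, as it was well above background in Ad-378 only, at least 2.88-fold higher there. Ddr1, a receptor tyrosine kinase for collagen, had 0.62 and 0.20 (-1.66). Itga11, the fibroblast integrin chain for fibrillar collagen, differed by -0.80, Cd93, an endothelial surface receptor, by -0.76 and Ddr2, the discoidin receptor of mesenchymal cells, by -0.42.

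Genes of TGF-beta signalling, the main known inducer of fibrillar collagen, differed less. Of 22 genes, 21 were measured in both pools; 17 differences were negative (against 46.1% of all genes), 2 were past 2-fold downwards and none upwards (against 4.51% and 2.83%), and the median was -0.14. The latent TGF-beta binding protein gene Ltbp1 (-1.07) and the ligand gene Tgfb3 (0.41 in Ad-Ctrl and 0.20 in Ad-378; -1.05) were lowest, followed by Ltbp3 (-0.77) and Ccn2 (-0.62), a target gene of the pathway. The ligand gene Tgfb1, named after its value was seen, differed by -0.30. The medians of these 4 lists were negative under each setting tried.

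Markers of the cells that make collagen were lower in the Ad-378 pool in part. Of 18 stellate cell and fibroblast markers, 17 were measured in both pools; 16 differences were negative (against 46.1% of all genes), 4 were past 2-fold downwards and none upwards (against 4.51% and 2.83%), and the median was -0.65, which was -0.36 after normexp. Their summed relative signal was 65.5 in Ad-Ctrl and 54.2 in Ad-378, with Dcn (32.1 and 27.9) the largest term. The lowest were Lum (2.53 and 0.66; -1.94), a proteoglycan that binds fibrils, the platelet-derived growth factor receptors Pdgfra (-1.07) and Pdgfrb (-1.06), and Hgf, hepatocyte growth factor (-1.02). Lrat, the retinol-esterifying enzyme of quiescent stellate cells, had 1.98 and 1.96 (-0.01), Dcn 32.1 and 27.9 (-0.20), and Acta2, the smooth muscle actin of activated stellate cells, -0.80; these were named after their values were seen. Des was not well above background on either array. Thus the markers were not equally lower, and their part in the collagen differences was not tested.

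**Figure D4:**
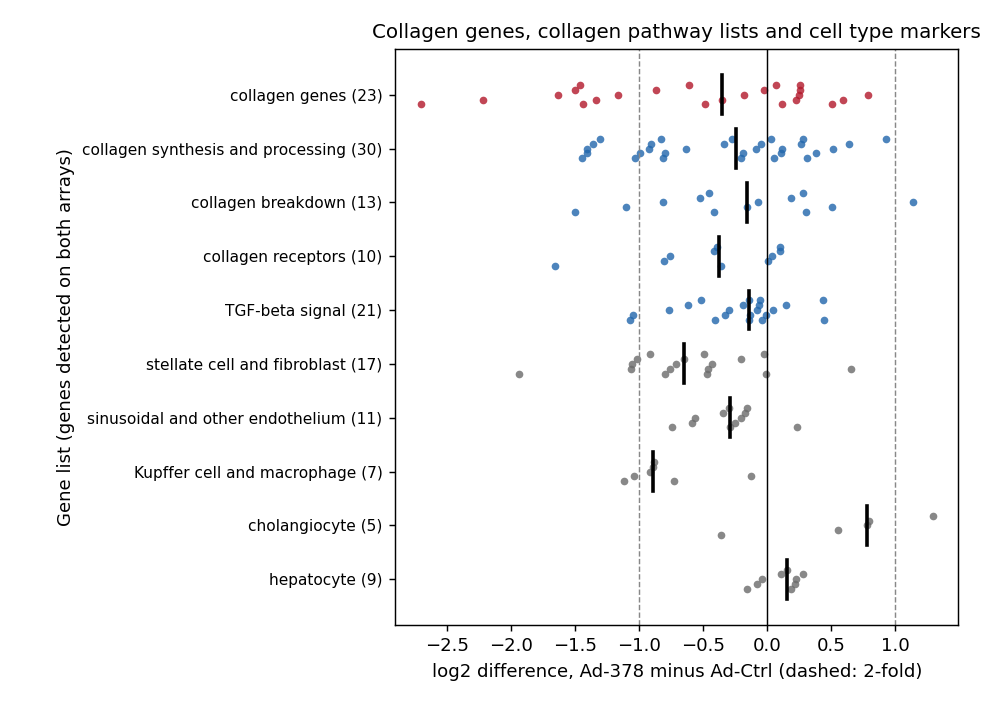
log2 difference (Ad-378 minus Ad-Ctrl) of each gene measured on both arrays, for the collagen genes (red), lists of the collagen pathway (blue) and cell type markers (grey), with the number of genes in brackets and a bar at the median. The collagen median is -0.35, the stellate cell and fibroblast median -0.65 and the hepatocyte median 0.16.

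Other cell types and cell division also differed between the pools. Kupffer cell and macrophage markers had a median of -0.89 (7 of 8 measured, all 7 negative by the brightest probe). Their summed relative signal was 97.7 in Ad-Ctrl and 50.8 in Ad-378. Csf1r, the largest term of that sum (36.5 and 19.9), had probes ranging from -0.88 to 0.36. Markers of sinusoidal and other endothelium had a median of -0.29 (11 of 11 measured, 10 negative, sums 52.5 and 43.5). Cholangiocyte markers had a median of 0.78 (5 of 6 measured, 4 positive and 1 negative; 6.10 and 12.6). Proliferation genes had a median of -2.17 (10 of 10 measured, all at least 2-fold lower, sums 17.7 and 3.56), with Mcm6 (10.9 and 1.91) the largest term. Over all genes, 46.1% of differences were negative and 4.51% were at least 2-fold lower. The largest differences were those of Cd5l (-1.12), Adgre1, Marco and Vsig4 among the macrophage markers, and of Lyve1 (-0.74), Tek, Tie1 and Pecam1 among the endothelial ones. They were those of Spp1 (1.30), Cdh1, Sox9 and Epcam among the cholangiocyte markers, where Krt19 lay the other way (-0.36), and of Cdc20 (-2.93), Aurka, Cdk1 and Mcm6 among the proliferation genes. Mesothelial markers (3 of 5 measured, median -0.63), cartilage markers (3 of 6, median 0.00) and erythroid genes (3 of 5, median -0.13, the value of the globin gene Hba-a1, with Alas2 at 2.02) rest on few genes. The part of each in the collagen differences was not tested, and with 1 array per group a difference between pools cannot be told apart from a difference between arrays.

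**Figure D5:**
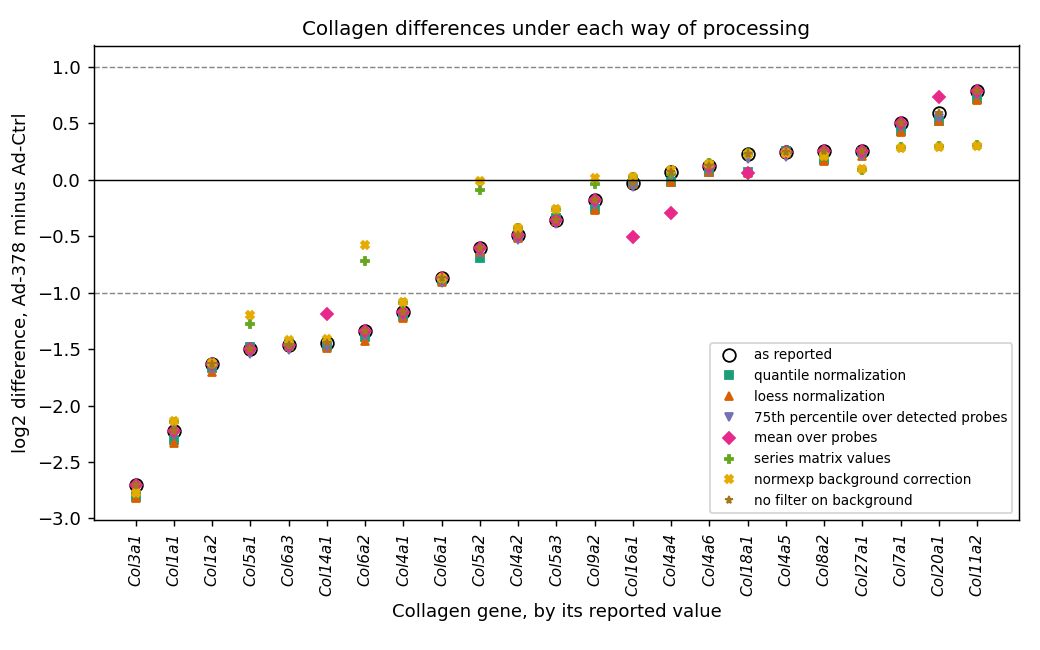
log2 difference (Ad-378 minus Ad-Ctrl) of the 23 collagen genes, ordered by the reported value (open circles), under 7 other ways of processing. Col3a1, Col1a1, Col1a2, Col5a1, Col6a3, Col14a1 and Col4a1 lie below the lower 2-fold line in all of them, and Col6a2 does not.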

How the data were processed

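Each pool was hybridised to 1 Agilent 1-colour array. The deposited spot intensities are the processed signal, background-subtracted and detrended within the array per the file headers, and the raw median signal. The other deposited values used are the error of the processed signal, from which the scanner error was taken, and flags of 0 or 1. Feature Extraction is version 9.1 per the submitters' processing notes and 11.0.1.1 per the file headers. The deposited series matrix intensities equal the raw median signal in 100% of values. Control spots and 123 marked outlier spots per array were left out, and spots of a probe were averaged as log2. No gene spot was saturated, and 63.1% (Ad-Ctrl) and 65.7% (Ad-378) were well above background.

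Probes were named through RefSeq transcripts of GRCm38.p6 (27219 of 39401 probes); the headers name build mm9, so no probe coordinates are given. Each gene is represented by the brightest of its probes that passed the background flag in both pools. Where it passed in 1 pool, a ratio was taken against that probe's own signal in the other pool or the dimmest detected signal there, whichever was higher. It is a lower bound only where the dimmest detected signal was the higher, and otherwise the plain ratio. All collagen genes are named, with the 4 largest differences of each other list; those of the hepatocyte list and of lists with 3 measured genes are left to their medians. Genes of the collagen pathway lists that were detected on 1 array only are named too. Alb, Des, Krt19, Hba-a1 and Alas2 were named outside these rules. Other genes are said to be named after their values were seen. The members and lists were chosen with earlier results of these data known. Steps were tested on simulated data. Python 3.11.15, pandas 2.3.3, statsmodels 0.14.6 and limma 3.58.1 were used. Pools limit the precision: 1 array per group gives no replicate error.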

Additional observations from a re-analysis of the deposited data

How the results depend on the processing

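No paired analysis was possible because there is 1 array in a group, numbered 1. The 8 collagen genes at least 2-fold lower numbered between 7 and 9 under 7 ways of processing, against 2.37% to 5.64% of all genes. At a threshold of 3-fold they numbered 3, against 1.41% of all genes. Of 161 gene values under these ways, 148 moved by less than the scanner error, 6 changed sign (of Col4a4, Col16a1 and Col9a2) and 2 lost a 2-fold call (both Col6a2). Without a background filter, 9 of 43 collagen genes were at least 2-fold lower and 1 was higher (against 5.64% and 5.13% of all genes). At 1.5-fold, 10 of 23 were lower and 2 higher (against 12.05% and 8.79% of all genes). The median over collagen genes was -0.0894 in the deposited series matrix and -0.0139 after normexp, the fibrillar median -0.77 and -0.73, and the stellate cell and fibroblast median -0.376 and -0.364; without a background filter the fibrillar median was -0.35, since undetected genes enter. With the mean over probes the basement membrane median was -0.11 and that of the other class -0.50. The cause of the other shifts was not tested. Leaving out Col18a1 and Col4a4, whose probes differed in sign, an alternative chosen after seeing the data, gave a collagen median of -0.49; neither was among the 8. Normexp (offset 50) used the raw median signal without local background.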

Other observations

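Matrix genes beyond the collagens were grouped after the collagen values had been seen, and are given as values, with the 4 largest differences of each group. Of 15 laminin, nidogen and basement membrane proteoglycan genes, all measured in both pools, 2 were at least 2-fold lower in the Ad-378 pool, 1 was at least 2-fold higher (against 4.51% and 2.83% of all genes), and the median was -0.15. Nid1, which links the laminin and type IV collagen networks, gave relative signals of 7.80 (Ad-Ctrl) and 1.58 (Ad-378; log2 difference -2.30, its other probe -2.21), and Lama1 was 2.01-fold lower. Lamb3 and Lama3, chains of an epithelial laminin, were higher, with differences of 1.30 and 0.89. Of 13 measured elastic fibre and microfibril genes, 12 differences were negative and 3 were past 2-fold downwards (against 46.1% and 4.51% of all genes), with a median of -0.64; the fibrillin gene Fbn1 (-1.37), Efemp2 (-1.13), Ltbp1 (-1.07) and Mfap4 (-0.95) were lowest.

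Proteins that carry a collagen-like stretch but are not named collagens did not share a direction. Of 18 such genes measured in both pools, 9 differences were negative (against 46.1% of all genes) and 9 positive, with a median of -0.05. The scavenger receptor genes Scara5 (-1.16) and Marco (-0.91) were lower in the Ad-378 pool, while the hepatocyte lectin gene Mbl1 (2.06 in Ad-Ctrl and 4.16 in Ad-378) and the surfactant protein gene Sftpa1 (0.97) were higher. Of 7 measured small leucine-rich proteoglycans, 5 differences were negative (against 46.1% of all genes). Lum (-1.94) and Bgn (-0.80) were lowest, and Ecm2 (0.70) and Omd (0.63) lay the other way.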
